A study of Mus musculus with 8 samples.

Results

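The genes described are the clustered histone genes of the mouse, taken as every gene whose symbol starts with Hist1h, Hist2h, Hist3h or Hist4h, which gave 67 of the 32285 genes counted. By histone type they are 6 H1, 18 H2A, 18 H2B, 12 H3 and 13 H4 genes. By cluster, 54 lie in Hist1 on chromosome 13, 10 in Hist2 on chromosome 3, 2 in Hist3 on chromosome 11 and 1 in Hist4 on chromosome 6. They were measured as unique molecular identifiers (UMIs, 1 per captured mRNA molecule) in single cells that were enriched with c-Kit beads and sorted as Epcr+ Lin- Sca-1+ Kit+, a gate that enriches for hematopoietic stem cells (HSCs). There were 6 gene expression libraries. Bone marrow, liver and spleen of 7 wild-type mice at postnatal day 2 (P2), merged before capture, gave 1 library each and are called the pool. An E19 library of wild-type mice is named bone marrow in its title and fetal liver in its tissue label, so it is called E19 here. Tubes 1 and 2 were made from 2 pups with Tppp3CreER and LSLTdTomato that received tamoxifen at P0, with marrow and spleen of P2 mixed, so that tdTomato marks cells in which the Tppp3-driven recombinase was active at about birth, and their progeny. Tube 1 joined the tdTomato-positive fraction from pup 1 with the negative fraction from pup 2, and tube 2 held the other fractions. The pool, E19 and the tubes are batches 1, 2 and 3 in the labels.

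Clustered histone genes supply the core histones (H2A, H2B, H3 and H4), around which DNA is wrapped, and the linker histone H1, which sits on the DNA between those particles. Most are transcribed when DNA is replicated, and their messages lack introns and usually end in a conserved stem-loop instead of a poly(A) tail. Stem-loop binding protein holds that loop and brings the mRNA to cleavage and translation. The libraries were primed on poly(A), so they capture only the part of these messages that carries a tail or an A-rich stretch. The values below are levels of that captured part, and the share of each message that was captured was not tested.

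Stem-loop sites are shown first because the end of the message bears on what poly(A) priming can capture. The histone 3' stem-loop was searched on the sense strand of annotated transcripts (GENCODE vM21, mm10), with any base allowed at 2 positions of the loop and 2 of the stem. It was found in 43 of the 67 members, 4 H1, 11 H2A, 9 H2B, 9 H3 and 10 H4, and in 0.0127% of 141597 transcripts of other genes. The capitals mark the stem-loop.
Hist1h1e: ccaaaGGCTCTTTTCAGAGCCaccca
Hist1h2ap: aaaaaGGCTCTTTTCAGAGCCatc
Hist2h2ac: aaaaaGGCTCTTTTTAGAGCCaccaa
Hist3h2a: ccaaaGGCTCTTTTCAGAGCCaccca
Hist1h2bj: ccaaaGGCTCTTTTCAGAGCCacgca
Hist3h2ba: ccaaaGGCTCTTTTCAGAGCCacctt
Hist1h3c: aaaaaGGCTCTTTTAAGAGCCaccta
Hist1h4d: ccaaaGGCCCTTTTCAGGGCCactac
All 10 H4 sites start with GGCC, and the other 33 start with GGCT. The most frequent core, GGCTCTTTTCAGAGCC, was shared by H1, H2A, H2B and H3 members, and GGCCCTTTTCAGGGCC stood in 7 H4 members. The other spellings found were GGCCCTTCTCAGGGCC and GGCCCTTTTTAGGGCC in H4, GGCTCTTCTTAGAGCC in H3, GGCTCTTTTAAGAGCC in H1, H2B and H3, and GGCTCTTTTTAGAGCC in H2A. The annotation ends 3 bases after the loop in Hist1h2ap and 23 after it in Hist1h2bj. It runs on for 57 bases in Hist2h2ac, 74 in Hist1h3c, 169 in Hist3h2ba, 770 in Hist1h4d, 1153 in Hist1h1e and 1643 in Hist3h2a. No match was found in the annotated transcripts of Hist1h1b and Hist1h2bc, which says only that these letters are not in those models.

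By that annotation, 25 members extend more than 50 bases past the loop, 18 end at or within 50 bases of it and 24 have no match. The 25 extended members held 49.3% of all member UMIs, the 18 loop-end members 19.5% and the 24 without a match 31.2%. The polyadenylation signal AATAAA lay in the last 50 bases of 12 members, which held 13.8% of member UMIs, and in 26.6% of the other transcripts. The extended members made up between 43.2% of member UMIs in P2 bone marrow and 60.7% in tube 1. The loop-end members made up 20.6%, 28.5% and 27.2% in P2 bone marrow, liver and spleen, 15.3% in E19, and 7.70% and 6.0% in tubes 1 and 2. Much of the loop-end level was 1 gene, Hist1h2ap, which shares 92.4% of its 90-base stretches with other genes. Loop-end members held 1601, 2246 and 2172 CPM (UMIs of a gene or group per 1000000 UMIs of all genes) in P2 bone marrow, liver and spleen, 296 in E19, and 502 and 395 in the tubes. Of these Hist1h2ap held 1022, 1573 and 1462 in the pool, 127 in E19, and 163 and 67.0 in the tubes, so the difference in end class between the batches rests largely on a gene whose own level is uncertain.

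Promoters, 250 bases before to 50 after the start, were matched for 62 members in the RefSeq table (build GRCm38.p6). CCAAT, the site of the factor NF-Y, was found on either strand in 53 of 62 members (85.5%) and in 37.3% of 32788 other promoters. The TATA box letters TATAAA were found in 35 members (56.5% against 13.5%). The octamer ATTTGCAT, known as an Oct1 site of H2B promoters, was found in 13 (20.97% against 1.70%), of which 7 were H2A and 6 H2B. AAACACA, known as a box of H1 promoters, was found in 9 (14.5% against 7.17%), among them 5 of the 6 H1 genes. CCAAT stood in all 6 H1, 18 H2A, 16 H2B and 10 H3 promoters matched, and in 3 of 12 H4 promoters. The first 250 bases are printed for the most abundant member, Hist1h1b (chr13:21780626-21780875, minus strand), and for Hist3h2a (chr11:58954435-58954684, plus strand), which behaved differently across the cell cycle. Capitals mark the 4 motifs on either strand, and no matches overlap in these stretches.
Hist1h1b: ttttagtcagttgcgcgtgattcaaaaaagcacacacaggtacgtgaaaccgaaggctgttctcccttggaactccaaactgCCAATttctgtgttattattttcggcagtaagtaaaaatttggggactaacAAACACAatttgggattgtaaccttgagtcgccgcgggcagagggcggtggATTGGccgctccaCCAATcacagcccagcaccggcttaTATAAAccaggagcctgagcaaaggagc
Hist3h2a: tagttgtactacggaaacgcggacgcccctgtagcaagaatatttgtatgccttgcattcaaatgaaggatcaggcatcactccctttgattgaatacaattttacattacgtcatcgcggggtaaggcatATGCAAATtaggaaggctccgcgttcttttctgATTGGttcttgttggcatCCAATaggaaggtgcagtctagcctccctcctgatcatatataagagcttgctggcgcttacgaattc
Both hold CCAAT. Hist1h1b also holds the TATA box letters and the H1 box, and Hist3h2a the octamer.

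The whole series gave 6550, 5634, 9043, 10725, 2722 and 2473 cells for P2 bone marrow, liver, spleen, E19, tube 1 and tube 2 after filters on genes (at least 1000), UMIs (at least 2000) and mitochondrial UMIs (at most 10%). Median depth was 6523 to 8275 UMIs per cell in the pool and E19, and 20120 and 20492 in the tubes. HSC-like cells, from clusters made without the member genes and named by markers such as Mecom and Hlf, were 36.5%, 4.79%, 27.8%, 77.3%, 93.0% and 68.6% of those cells. Each pair of pool and E19 libraries shared 16 to 34 barcodes, and the tubes shared 3 with each other and 0 with the rest. Each group is 1 library, so levels between ages, tissues of the pool and batches carry no test. Intervals given below are exact 95% intervals for counting error only.

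Clustered histone genes held 7783 CPM (95% Poisson interval 7761 to 7804) in P2 bone marrow, 7889.7 (7868 to 7912) in liver and 7975 (7956 to 7994) in spleen. The level was 6518 (6497 to 6539) in tube 1 and 6587 (6565 to 6608) in tube 2. In E19 it was 1930.4 (1921 to 1939.7), lower than in any P2 library. E19 is a single library and a batch of its own, so age and batch cannot be told apart. The linker histones led in 4 libraries: H1 made up 45.8%, 50.1% and 55.7% of member UMIs in P2 bone marrow, tube 1 and tube 2 and 35.6% in E19. In P2 liver and spleen H2A was the largest type, at 40.3% and 39.7% against 35.2% and 33.3% for H1. H2A was 16.2% and 13.004% in the tubes, and H2B was 14.3% in E19 against 6.01% to 8.89% elsewhere.

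**Figure D1:**
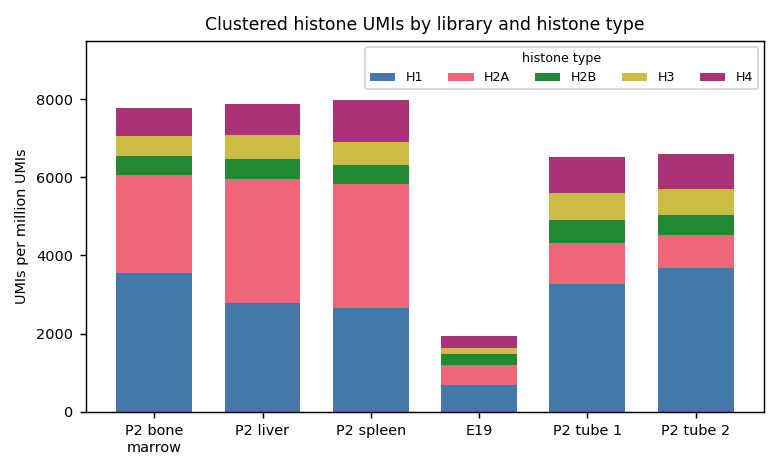
Level of clustered histone genes in CPM (vertical axis) in each of the 6 libraries, stacked by histone type. E19 reaches 1930.4 and the P2 libraries between 6518 and 7975; the H2A segment is 3177 in P2 liver and 857 in tube 2.

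A few genes held most of the signal. Hist1h1b, a linker histone gene on chromosome 13 (21779883 to 21780625, minus strand), held 21.2% of member UMIs, the top 5 members 60.5% and the top 20 90.5%. UMIs were seen in every library for 63 members. Hist1h2bq, Hist1h2aa, Hist2h2aa2 and Hist1h2ba had 16, 6, 3 and 0 UMIs in all libraries together. Per kilobase of annotated transcript, Hist1h1b held 1793 CPM and Hist1h2ap, an H2A gene, 1574. The level per kilobase was 443 for the leading H4 gene Hist1h4d, 362 for the leading H3 gene Hist1h3c and 167 for the leading H2B gene Hist1h2bj. A UMI stands for a molecule whatever its length, so these values also depend on the annotated length and do not rank numbers of messages.

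Many members are nearly identical in sequence, and counting can move reads between them. Over 50% of the 90-base stretches of the transcript were shared with another gene in 27 members, and none in 6. Hist1h2ap shared 92.4%, so its own level is uncertain. Hist1h2af shared 66.5%, Hist1h3b 57.4% and Hist1h2bl 66.8%. Hist1h1b and Hist1h1a shared none, and Hist1h4d shared 0.858%. Pool, E19 and tubes were also counted with different releases of Cell Ranger, so the order of near-identical members between batches cannot be told apart from the counting.

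The level of Hist1h1b was 2183, 1619 and 1613 CPM in P2 bone marrow, liver and spleen, 337 in E19, and 1139 and 1339 in tubes 1 and 2. The level of Hist1h1e, another linker histone gene, was 769.8, 646 and 569 in the pool, 145 in E19, and 932 and 1053 in the tubes. For Hist1h4d, which encodes H4, it was 416, 448 and 630.5 in the pool, 187 in E19, and 739 and 724 in the tubes. E19 was lowest for all 3 genes, and the tubes lay below the pool for Hist1h1b and above it for Hist1h4d. Hist1h2ap stood at 1022, 1573 and 1462 in the pool, 127 in E19, and 163 and 67.0 in the tubes. Hist1h1c, a linker histone gene also made outside replication, stood at 199, 183 and 147 in the pool, 78.3 in E19, and 467 and 519.5 in the tubes.

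Of the 63 members with at least 100 UMIs, 55 were lower in E19 than in each pooled library. For 42 of these E19 was below 0.5 of the pool mean, and the median ratio of E19 to the pool mean was 0.368. Members that were higher in E19 than in any pooled library numbered 5. Hist3h2a, an H2A gene (chromosome 11, 58954685 to 58956830, plus strand), stood at 17.1 CPM in E19 against 7.23, 7.74 and 4.37 in P2 bone marrow, liver and spleen. Its neighbour Hist3h2ba, an H2B gene (chromosome 11, 58948920 to 58949533, plus strand), stood at 16.8 against 8.02, 7.33 and 8.49. Hist2h2be stood at 4.87 against 2.01 to 2.45 and Hist1h2bc at 104 against 53.5 to 71.9, both H2B genes. The fifth was Hist1h2bl, an H2B gene at 2.13 against 1.71 to 2.07. These levels join all cell cycle phases, which are called as described below. G1 calls were 44.1% of the E19 cells scored and 6.91% to 16.1% of those in the pooled libraries. Within phases Hist3h2a stayed higher in E19 than in the pool. Hist1h2bc was higher in E19 in G1 and lower in S. The part of phase in these differences was not tested. In the tubes 8 members were above 2 times the pool mean and 20 below 0.5 of it, with a median ratio of 0.849. Hist1h2bl stood at 25.1 and 24.4 in the tubes, 13.3 times the pool mean, and Hist2h2bb at 147 and 143 against 30.6 to 37.9.

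**Figure D2:**
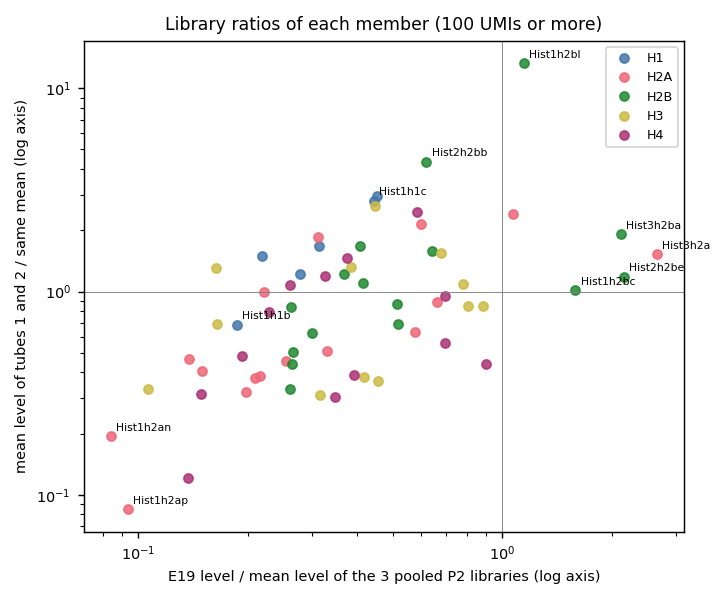
Each point is 1 member with at least 100 UMIs, coloured by histone type, with the ratio of its E19 level to the mean of the 3 pooled P2 libraries on the horizontal log axis and the ratio of the mean of both tubes to the same mean on the vertical log axis. Most points lie left of 1 (median 0.368), and Hist3h2a, Hist3h2ba, Hist2h2be and Hist1h2bc lie right of it.

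Almost every cell held a member UMI. Cells with 5000 or more UMIs were thinned to 5000, which left out 1543, 1667 and 2888 cells of P2 bone marrow, liver and spleen, 2635 of E19, and 69 and 179 of tubes 1 and 2. Of the deeper cells that remained, at least 1 member UMI was seen in 98.3% (95% binomial interval 97.9 to 98.7) of P2 bone marrow cells, 96.9% (96.4 to 97.5) in liver and 97.7% (97.3 to 98.0) in spleen. The share was 88.6% (87.9 to 89.2) in E19, 98.5% (98.0 to 98.9) in tube 1 and 96.3% (95.4 to 97.0) in tube 2. Unthinned shares were 98.4%, 95.9%, 94.9%, 91.1%, 99.4% and 98.3%. In neutrophil-like cells of tube 2 the thinned share was 92.8% (88.4 to 95.9) of 208 cells, of which 139 were called G1 and stood at 790.5 CPM and 64 were called G2/M and stood at 9769 CPM. No class served as one without histone message, so a background share was not measured. The median thinned cell held 32, 17 and 34 member UMIs of 5000 in the pool, 3 in E19, and 8 and 6 in tubes 1 and 2.

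To compare cell cycle phases, each cell with 5000 or more UMIs was thinned to 5000 and scored on S and G2/M gene lists that contain no histone gene. Cells with neither score above 0 were called G1, those with the higher score on the G2/M list G2/M, and the rest S. UMIs were summed per phase and source (pool, E19, tube 1, tube 2), and the 12 sums were fitted with edgeR with the source as a block. G1 calls made up 6.91%, 16.1% and 10.4% of P2 bone marrow, liver and spleen cells, 44.1% of E19 cells, and 33.1% and 40.8% of the tubes, all as shares of the cells scored (5007, 3967, 6155, 8090, 2653 and 2294). Phase is a range and not a type, since 18.2% to 24.5% of cells per library lay within 0.05 of a score of 0. Replicates here are sources of different age, genotype and batch.

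Clustered histone genes were higher in S than in G1 in every source. The summed level in G1 and S was 831 and 6589 CPM in the pool, 477 and 1834 in E19, 1239 and 3773 in tube 1, and 992 and 4136 in tube 2. In G2/M it was 9189, 3209, 10902 and 11000.5 in the same order. E19 was below the other sources in each phase. Of the 63 members tested, 56 rose and 3 fell between G1 and S (edgeR quasi-likelihood test, Benjamini-Hochberg adjusted p below 0.05), against 23.8% of all 16434 genes that rose and 23.6% that fell. The median log2 fold change was 2.70 for the members and -0.08 for all genes. By type, 6 of 6 H1, 13 of 16 H2A, 13 of 16 H2B, 11 of 12 H3 and 13 of 13 H4 members tested rose, with medians of 2.67, 2.87, 3.00, 2.67 and 2.21.

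Linker histones differed widely among themselves. Hist1h1b went from 45.7 to 1668 CPM between G1 and S in the pool, from 14.6 to 399.8 in E19, from 30.9 to 777 in tube 1 and from 24.6 to 976 in tube 2. The phases did not overlap, and its log2 fold change was 5.16 (SE 0.21, edgeR adjusted p = 1.2e-06). Hist1h1a, also a replication-linked linker histone, rose by 3.96 (SE 0.18) and Hist1h1e by 1.69 (SE 0.22). Hist1h1c went from 52.9 to 131 in the pool, from 45.2 to 60.3 in E19, from 159 to 228 in tube 1 and from 161 to 271 in tube 2. Its rise, 0.93 (SE 0.22, edgeR adjusted p = 0.0087), was the lowest of the H1 members.

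Among H2A members, which pair with H2B, Hist1h2af had the largest fold change of all members at 5.92 (SE 0.44, edgeR adjusted p = 1.4e-05). It was at 0, 0.499, 0.0790 and 0.282 CPM in G1 of the pool, E19, tube 1 and tube 2, and at 9.32, 14.4, 14.9 and 17.3 in S. The G1 values rest on few UMIs, so the size of that fold is imprecise. Hist1h2an rose by 4.77 (SE 0.32), Hist1h2ap by 2.81 (SE 0.25), Hist1h2ae by 2.89 (SE 0.29) and Hist2h2ac by 2.85 (SE 0.19). Among H2B members, Hist1h2bm rose by 4.62 (SE 0.25), Hist1h2bn by 4.51 (SE 0.39), Hist1h2bj by 3.41 (SE 0.23) and Hist2h2bb by 2.64 (SE 0.24).

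H3 and H4 pair to form the centre of the core particle. Hist1h3c went from 6.55 to 174 CPM in the pool, from 1.45 to 34.99 in E19, from 3.95 to 152 in tube 1 and from 2.61 to 171 in tube 2. Its log2 fold change of 5.31 (SE 0.34, edgeR adjusted p = 6.3e-06) was below that of Hist1h3b, 5.76 (SE 0.39). The other H3 genes of high level rose less, Hist1h3f by 2.70 (SE 0.20) and Hist1h3e by 1.92 (SE 0.21). Hist1h4d went from 81.9 to 340.2 in the pool, from 50.8 to 156 in E19, from 155 to 396 in tube 1 and from 129.8 to 417 in tube 2. Its rise was 1.86 (SE 0.14, edgeR adjusted p = 1.5e-05). Hist1h4h rose by 2.12 (SE 0.22) and Hist1h4c by 2.16 (SE 0.21), and the H4 genes with the largest rise, Hist1h4b at 3.76 (SE 0.32) and Hist1h4f at 3.74 (SE 0.36), stayed under 20 CPM in every phase and source.

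**Figure D3:**
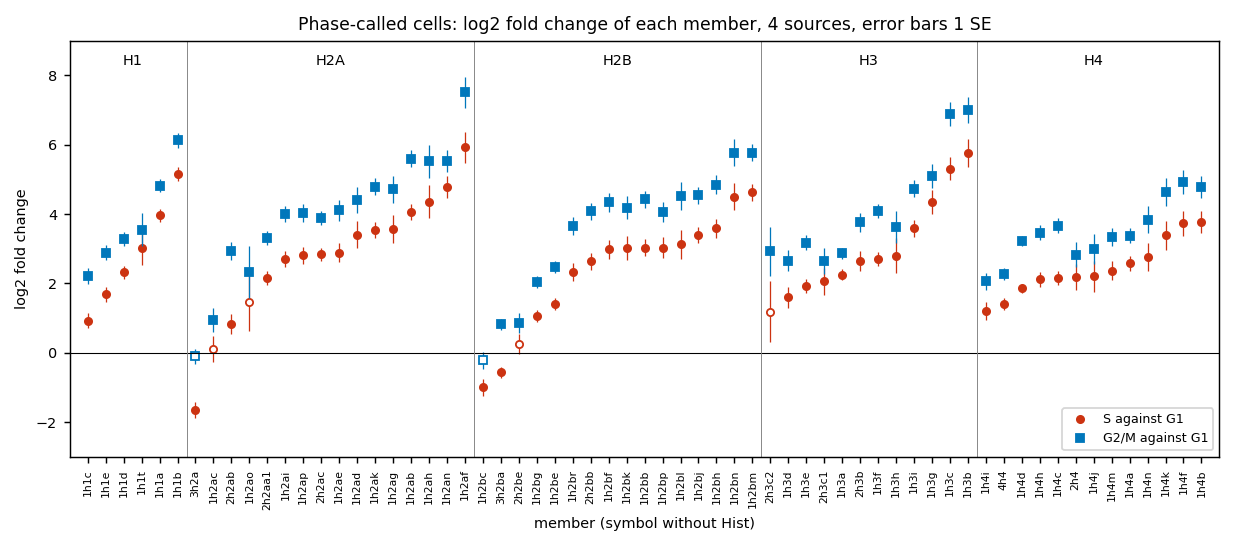
Log2 fold change of each tested member between phase-called cells, ordered within histone type, with 1 SE (computed as the log2 fold change over the square root of F). Circles compare S with G1 and squares G2/M with G1; filled symbols passed the edgeR threshold. Nearly all symbols lie above 0, and the circles of Hist3h2a, Hist1h2bc and Hist3h2ba lie below it at -1.65, -0.99 and -0.57.

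The 3 members that fell in S were 1 H2A and 2 H2B genes. Hist3h2a went from 12.5 to 3.04 CPM between G1 and S in the pool, from 14.8 to 7.20 in E19, from 13.6 to 3.44 in tube 1 and from 15.2 to 3.08 in tube 2. Every S value was below every G1 value, and the log2 fold change was -1.65 (SE 0.24, edgeR adjusted p = 0.00055). In G2/M it stood at 5.84, 18.2, 11.8 and 10.8 and did not pass the test against G1 (log2 fold change -0.11, SE 0.22). Hist1h2bc (chromosome 13, 23684199 to 23692908, plus strand) went from 79.4 to 60.6, from 94.5 to 44.8, from 139.6 to 43.1 and from 87.1 to 30.5. Its log2 fold change was -0.99 (SE 0.24, edgeR adjusted p = 0.0090). Hist3h2ba fell by 0.57 (SE 0.16, edgeR adjusted p = 0.019) in S and rose by 0.82 (SE 0.16, edgeR adjusted p = 0.0020) in G2/M. Hist3h2a and Hist3h2ba carry a stem-loop and an annotated stretch of 1643 and 169 bases beyond it with AATAAA in the last 50 bases, and Hist1h2bc has no match to the loop motif. The call of Hist3h2a held when any source was left out. Hist1h2bc was no longer called without tube 1 (adjusted p = 0.056) or tube 2 (0.063), and Hist3h2ba without E19 (0.107), tube 1 (0.064) or tube 2 (0.093). The 4 members with no call were Hist1h2ac, Hist2h2be, Hist1h2ao and Hist2h3c2, at log2 fold changes of 0.11, 0.26, 1.46 and 1.19.

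Histone levels were higher still in cells called G2/M. Against G1, 61 of 63 members rose and 0 fell (27.5% of genes rose and 28.3% fell), with a median of 3.84. Between S and G2/M, 0 members were higher in S and 52 were lower (8.04% and 9.66% of genes). Hist1h4d, for example, stood at 618, 319, 1252 and 1221 CPM in G2/M of the pool, E19, tube 1 and tube 2, and its S against G2/M change was -1.37 (SE 0.14, edgeR adjusted p = 0.00074). Hist1h1b stood at 2075, 604, 1913 and 2263, a change of -0.97 (SE 0.18, edgeR adjusted p = 0.0087). The count of 52 fell to 29 without E19, 24 without tube 1 and 18 without tube 2, and was 54 without the pool. It was 1 in the fit without the source block.

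A split by which of the scores lay above 0, added after the data were seen, gave high levels wherever the G2/M score lay above 0. Cells with neither score stood at 831, 477, 1239 and 992 CPM in the pool, E19, tube 1 and tube 2, and those with only the S score at 1679.5, 419.6, 978 and 814. Cells with both scores stood at 9679, 3398, 10157 and 10857, and those with only the G2/M score at 7463, 2718, 8105 and 7835. Cells with only the S score were above those with neither in the pool, at over 2 times the level, and below them in E19 and both tubes. Within HSC-like cells of the pool these groups were close, at 1060 with only the S score and 1015 with neither. Of 61 members tested in all cells, 59 were higher with both scores than with the S score alone and 0 lower (22.0% and 12.3% of 15401 genes). With the S score alone against neither, 18 were higher and 4 lower (16.1% and 14.6%), and the member median was 0.53. The 4 were Hist3h2a, Hist3h2ba, Hist1h2bc and Hist1h1c, at -1.995 (SE 0.25), -1.25 (SE 0.19), -1.09 (SE 0.30) and -0.71 (SE 0.19). With the G2/M score alone against neither, 57 were higher and 0 lower (23.5% and 23.7%). Between both scores and the G2/M score alone, 11 members were higher and 1, Hist3h2a, lower (11.5% and 7.19%), so most members did not pass the test there. Of the 11 higher, 4 were H1 genes, led by Hist1h1a at 1.07 (SE 0.17) and Hist1h1b at 0.87 (SE 0.27).

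**Figure D4:**
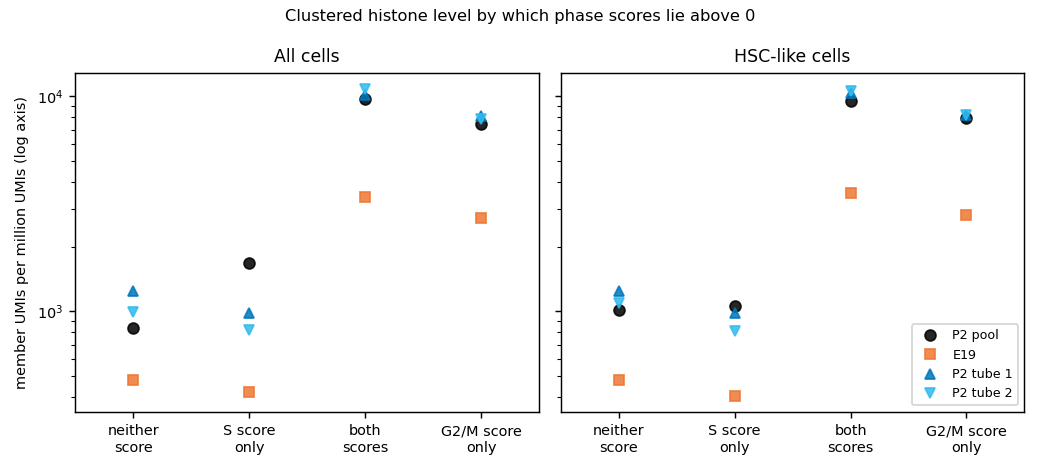
Summed level of clustered histone genes (CPM, log axis) in cells grouped by which phase score lies above 0, for 4 sources, in all cells (left) and HSC-like cells (right). In every source the level with both scores or the G2/M score alone is several times that of the other groups, and E19 lies lowest in each group.

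In single thinned cells the same groups were broad. The median cell called G1 held 2 to 6 member UMIs of 5000 over the 6 libraries, the median S cell 3 to 12 and the median G2/M cell 16 to 59. In P2 spleen, for example, cells with both scores had a median of 51, with the lowest 10% at 3 or fewer and the highest 10% at 112 or more. G2/M cells held 78.7%, 80.6% and 82.2% of the thinned member UMIs in the pool, 70.6% in E19, and 72.7% and 77.3% in the tubes.

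Within HSC-like cells, which leaves out the other classes but joins several clusters, the phases differed in the same way. The level in G1, S and G2/M was 1015, 4201 and 9750.2 CPM in the pool, 479, 1649 and 3339 in E19, 1248, 3969.8 and 11017 in tube 1, and 1089, 3313 and 11418 in tube 2. Between G1 and S, 54 of 62 members rose and 3 fell (27.4% and 26.5% of 15119 genes). The 3 were again Hist3h2a, Hist1h2bc and Hist3h2ba, at -1.54 (SE 0.17), -1.36 (SE 0.15) and -0.90 (SE 0.13). Between G1 and G2/M, 61 rose and 0 fell (29.9% and 27.4%), and between S and G2/M, 0 were higher and 60 lower in S (19.9% and 23.2%). With the S score alone against neither, 10 were higher and 8 lower (20.9% and 19.5%), the latter including Hist1h1c at -0.96 (SE 0.16), Hist1h1e at -0.39 (SE 0.05) and Hist1h1d at -0.37 (SE 0.12). With both scores against the S score alone, 59 of 61 were higher and 0 lower (16.3% and 6.43%), and with both against the G2/M score alone 25 were higher and 4 lower (22.0% and 19.4%). In the pool the HSC-like sums of H1 and H2A were 3776 and 3633 CPM with both scores and 2624 and 2984 with the G2/M score alone. Those of H2B, H3 and H4 went the other way, at 506, 605 and 1011 with both scores and 553, 616 and 1119.9. The sum of all members there was 9531 with both scores and 7897 with the G2/M score alone. With the G2/M score alone against neither, 59 were higher and 0 lower (28.2% and 26.3%). HSC-like cells of the pool lay mostly in clusters 3 and 5, those of E19 and tube 1 in clusters 0, 1 and 2, and those of tube 2 in cluster 8.

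Genes that make or handle histones were followed beside the members. Of a list of 25, covering 3' end processing, transcription, chaperones and their partners, 21 rose and 0 fell between G1 and S (23.8% and 23.6% of all genes), with a median of 0.63. Asf1b, a chaperone that hands H3 and H4 to the assembly machinery, went from 3.499 to 54.3 CPM in the pool, from 2.54 to 33.8 in E19, from 1.82 to 32.1 in tube 1 and from 1.34 to 45.0 in tube 2. Its log2 fold change was 4.33 (SE 0.20, edgeR adjusted p = 1.7e-06). Slbp, which encodes stem-loop binding protein, went from 94.0 to 250 in the pool, from 70.5 to 200 in E19, from 61.8 to 157 in tube 1 and from 61.3 to 201 in tube 2, a rise of 1.66 (SE 0.08). The chaperone Nasp rose by 1.76 (SE 0.09), the assembly factor subunits Chaf1a and Chaf1b by 1.97 (SE 0.12) and 1.59 (SE 0.09), and the acetyltransferase Hat1 by 1.48 (SE 0.11). Between S and G2/M, where 52 members were lower in S, 6 genes of this list were higher in S and 1 lower (8.04% and 9.66% of all genes). Chaf1b was higher by 0.86 (SE 0.09, edgeR adjusted p = 0.00087), Chaf1a by 0.55 (SE 0.11), Hat1 by 0.43 (SE 0.11), and Nasp and Slbp by 0.29 each (SE 0.09 and 0.08). The one lower was Zfp473, a component of the histone 3' end machinery, at -1.34 (SE 0.28), which stayed under 4 CPM.

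Variant histone genes lie outside the clusters, and most make polyadenylated mRNA. Of 11, 8 rose and 1 fell between G1 and S (23.8% and 23.6% of all genes), and 10 rose and 0 fell between G1 and G2/M (27.5% and 28.3%). H2afz, which encodes H2A.Z, had the largest S against G1 change at 1.61 (SE 0.10). H2afx changed by 1.52 (SE 0.20) in S and 3.29 (SE 0.21) in G2/M. Cenpa, the centromeric H3 variant, did not pass in S (0.37, SE 0.45) and rose by 2.92 (SE 0.47) in G2/M. H1f0, the linker histone of cells that stop dividing, fell by 0.60 (SE 0.17) in S and rose by 0.66 (SE 0.17) in G2/M. H3f3a and H3f3b, which encode the replication-independent H3.3, changed by 0.20 (SE 0.04) and 0.27 (SE 0.09) in S.

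Members with different annotated ends differed in the size of the S against G1 change, with a median of 1.92 for 25 extended members, 3.02 for 17 loop-end members tested and 3.13 for 21 without a match. With AATAAA in the last 50 bases the median was 2.12 over 12 members, against 2.81 over 51 without. For the S score alone against neither, it was -0.07 over 11 members with the hexamer and 0.75 over 50 without. End classes hold different histone types and levels, and these medians carry no test.

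Cell classes differed in histone level. HSC-like cells stood at 6151, 5640.3 and 6792 CPM in P2 bone marrow, liver and spleen, 1668 in E19, and 6727 and 6189 in tubes 1 and 2. Erythroid-like cells stood at 8623, 8931 and 9472 in the pool, 3029.6 in E19 and 11625 in tube 2, above the HSC-like cells of each library when all phases were summed. B cell-like cells stood at 14463 and 12502 in P2 bone marrow and liver, 6827 in spleen, 3999 in E19 and 8100.3 in tube 2. They were the highest named class in P2 bone marrow and liver, while in spleen they stood near the HSC-like cells. The other named classes of the pool ranged from 2847 in endothelial-like cells of spleen to 7989 in myeloid progenitor-like cells of liver, and E19 lymphoid-primed-like cells stood at 1599. In the 4 classes with 50 or more cells in E19, the lowest P2 library was 1.71 to 3.96 times the E19 level and the highest 3.62 to 4.46 times. With a finer clustering (resolution 2), the HSC-like level was 4724, 4084 and 3247 in the pool, 1571 in E19, and 6054 and 6215 in the tubes.

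**Figure D5:**
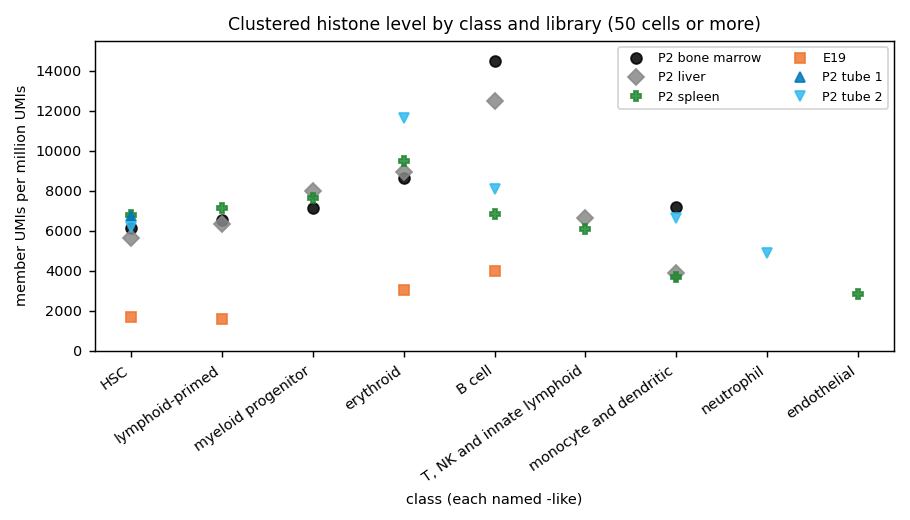
Summed level of clustered histone genes (CPM, vertical axis) in each cell class (horizontal axis, each name meaning a class named from markers) for every library with 50 or more cells of the class; each symbol is 1 library. B cell-like cells of P2 bone marrow reach 14463, and the 4 E19 points lie between 1599 and 3999.

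Classes were compared with HSC-like cells over 3 sources (pool, E19, tube 2) with the source as a block. The planned comparison within G1-called cells could not be fitted, since no other class had 50 such cells in 3 sources, so all cells of a class entered. In erythroid-like cells 55 of 63 members were higher and 1 lower (28.7% and 33.6% of 16095 genes), with a median of 1.23. The H4 members had the largest median, 1.62, and Hist1h1b was higher by 1.53 (SE 0.25, edgeR adjusted p = 0.00082). Hist3h2a was the one lower, at -0.59 (SE 0.19, edgeR adjusted p = 0.024). In B cell-like cells 46 of 63 were higher and 0 lower (13.8% and 16.3%), with a median of 0.99. Hist1h1b was higher by 1.31 (SE 0.25, edgeR adjusted p = 0.0054), Hist1h1t, a linker histone known from the testis, by 3.59 (SE 0.52), and Hist3h2a by 0.98 (SE 0.20). The B cell-like count fell to 1 without the pool and was 41 without E19 or without tube 2. Phase moved with class among scored cells. G1 calls were 0% to 1.18% of scored erythroid-like and 13.5% to 51.2% of scored HSC-like cells. Of scored B cell-like cells they were 2.54%, 5.22%, 19.5%, 6.84% and 64.1% in P2 bone marrow, liver, spleen, E19 and tube 2. Cells with too few UMIs to be scored have no phase but entered the class levels and the fit. The pool sum held 4445 B cell-like cells. Those called G2/M, the most frequent call, numbered 343, 360 and 234 in P2 bone marrow, liver and spleen. The G1 share of unscored cells was not measured. Within G2/M-called cells the order of erythroid-like and HSC-like cells turned. Erythroid-like cells there stood at 8396, 8874 and 9337 CPM in P2 bone marrow, liver and spleen, 3013 in E19 and 11225 in tube 2, and HSC-like cells at 9306, 9282, 10200.2, 3339 and 11418, higher in all 5. Within S-called cells erythroid-like cells were higher in all 5, at 8515, 8973, 10368, 3306 and 13374 against 3947, 2409, 4593, 1649 and 3313. The erythroid-like excess over all phases thus did not hold in G2/M. B cell-like cells stood above HSC-like cells in G2/M in the 4 libraries with a value, at 14844, 17933 and 14468 in the pool (P2 bone marrow, liver, spleen) and 4252 for E19. T, NK and innate lymphoid-like cells in G2/M stood higher still, at 20065 in liver (36 cells) and 14915 in spleen (68 cells). In S the B cell-like cells stood at 10451, 10009 and 3197 in P2 bone marrow, liver and E19, above HSC-like cells, and at 3857 in spleen, below them. In G1 they stood at 693, 720.1 and 972 in liver, spleen and tube 2, against 1044, 1059.6 and 1089 in HSC-like cells. These levels within phases carry no test.

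No member passed the test between P2 bone marrow and spleen. The 3 sources were the pool and the tdTomato-negative hashtagged cells of each pup, with the source as a block. The summed level in bone marrow and spleen was 7783 and 7975 CPM in the pool, 7516 and 6948 in pup 1, and 6634 and 7204 in pup 2. Spleen was higher in the pool and pup 2 and lower in pup 1. Summed neutrophil markers stood at 28456 and 11862 in bone marrow and spleen of pup 1 against 294 and 138 in the pool and 6.45 and 6.82 in pup 2, and their part was not tested. None of 63 members was called in either direction by edgeR, as for 0.0% of 15872 genes, with 2 members and 1074 of all genes at an unadjusted p below 0.05 and 0 members called by DESeq2. Log2 fold changes ran from -0.37 to 0.71. Hist1h1b stood at 2183 and 1613 in the pool, 1491 and 1348 in pup 1, and 1148 and 1278 in pup 2 (0.12, SE 0.15). Hist1h2ap, at 1022 and 1462 in the pool, was at 78.9 and 76.9 in pup 1 and 165 and 181 in pup 2 (-0.24, SE 0.15), and Hist1h4d changed by -0.22 (SE 0.17). In HSC-like cells 0 of 62 were called by edgeR (0.0481% of genes were higher and 0.0275% lower), with 0 by DESeq2. At an unadjusted p below 0.05 there were 19 of the 62 members and 1432 of all 14557 genes. The median there was -0.16, and 7 were called lower in bone marrow when low counts were not filtered. In G1-called cells, an alternative added after the data were seen, 0 of 33 members were called (0.024% of genes higher and 0.096% lower), with 1 at an unadjusted p below 0.05, and 0 of 26 in G1-called HSC-like cells (0.142% and 0.0177%), with 2. Fewer cells in cycle and less RNA per cell cannot be told apart in summed values.

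In tdTomato-positive cells histone levels were lower in both pups. The level was 4697 CPM in 34 positive against 7014 in 1373 negative cells of pup 1, and 5101 in 40 positive against 6849 in 2085 negative cells of pup 2. None of 60 members was higher and 16 were lower in positive cells (0.633% and 1.82% of 14067 genes). They included 4 H1, 5 H2A, 2 H2B, 2 H3 and 3 H4 genes. Hist1h3c stood at 189 against 374 in pup 1 and 226 against 339 in pup 2, a log2 fold change of -0.85 (SE 0.13, edgeR adjusted p = 4.6e-08). Hist1h1e stood at 746 against 1103 and 684 against 969, a change of -0.63 (SE 0.10, edgeR adjusted p = 3.9e-07). Hist1h1b stood at 860.2 against 1365 and 1090.4 against 1197, a change of -0.48 (SE 0.10, edgeR adjusted p = 0.00012). Its difference was larger in pup 1 than in pup 2, which the SE, mostly pooled over genes, does not show. The other H1 genes called were Hist1h1c at -0.65 (SE 0.12) and Hist1h1d at -0.74 (SE 0.13).

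The H2A genes called were Hist1h2ab, Hist1h2ae, Hist1h2ak, Hist1h2ap and Hist2h2ac, at -0.88, -0.61, -1.08, -0.94 and -0.58, and the H2B genes Hist1h2bm and Hist2h2bb, at -0.91 and -0.62. Hist1h3e changed by -0.62, and the H4 genes Hist1h4c, Hist1h4d and Hist1h4h by -1.13, -0.57 and -1.39. The count of 16 was 5 with DESeq2, 3 with a second hashtag rule and 0 without the pup as a block. Without the block it was 0 when either positive group was left out, 9 without the negative cells of pup 1 and 11 without those of pup 2. Each of these sets 1 sum against 2, so the spread comes from the arm with 2 and the lone sum is assumed to vary like it. For the label alternatives named so far, the shares of all genes called are not given. A lower member count there cannot be told apart from fewer calls over all genes. In HSC-like cells, an alternative added after the data were seen, 0 were higher and 21 lower (0.831% and 2.02% of 13594 genes). There 29 and 40 positive cells stood at 3309 and 5101 against 7205 and 7068.

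Other measures moved with the label. Median UMIs per cell were 12717 in positive against 23655 in negative cells of pup 1 and 18096.5 against 20730.0 in pup 2. Summed HSC markers were 4753 against 3171 CPM and 5518 against 3949.8, higher in the positive cells of both pups. G1 calls were 56.7% and 52.5% of the scored positive cells of pups 1 and 2 and 35% and 31.7% of the scored negative cells. In G2/M-called cells the level was 12327 in 7 positive against 11316 in 532 negative cells of pup 1 and 12981 in 8 positive against 11183 in 770 negative cells of pup 2. These levels rest on few positive cells and carry no test. The 7 positive G2/M cells of pup 1 held 1887 member UMIs. All 29 HSC-like positive cells of that pup held 1364 over all phases, so part of the 1887 came from other classes. In G1 the level was 1071 against 880.0 and 1085 against 1268, and in S 709 in 6 cells against 3764 and 3862 in 11 cells against 4059. Summed neutrophil markers were 13791 CPM in negative cells of pup 1 against 6.45 in its positive cells and 6.59 and 94.5 in negative and positive cells of pup 2, and erythroid markers 2477 in positive cells of pup 1 against 510 to 814 elsewhere. Their part in the 16 calls was not tested, and positive and negative cells of a pup were captured in different tubes.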

How the data were processed

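The authors deposited UMI count matrices, raw counts per gene and cell barcode. Per the file headers they were written by Cell Ranger 7.0.0 (pool), 7.1.0 (E19) and 8.0.1 (tubes), and 7.0.0 with build mm10 is what the submitters' processing notes give. Of 8 samples, 6 hold gene expression and 2 hold hashtag counts, which gave the pup and organ of cells in the tubes. Per-library totals after filtering were 55281289 to 86364215 UMIs, and intervals cover counting error only. Nothing in the labels beyond the 2 pups names separate animals. The p-values therefore measure spread between these sources, which include different batches, and edgeR shares information on spread over all genes. For the label, with 2 pups, they rest mostly on spread pooled over genes and little on how the pups differ for a gene.

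Cells with at least 1000 genes, at least 2000 UMIs and at most 10% mitochondrial UMIs were kept. Levels are summed UMIs per 1000000 UMIs (CPM). Cells were clustered without the member genes (scanpy 1.11.5, 2000 variable genes, 30 components, 15 neighbours, leidenalg 0.10.2, resolution 1). A cluster was named where at least 3 markers and 50% of a list stood at 2 times the median cluster and at 10 CPM, with 1 or more among its top 10 genes, thresholds set after seeing the data. Doublets were not removed in the reported values. Phases were scored on 39 S and 51 G2/M genes in cells thinned to 5000 UMIs. Sums of at least 20 cells (50 for classes) were tested in edgeR 4.0.16 (R 4.3.3, quasi-likelihood, TMM, filterByExpr, Benjamini-Hochberg adjusted p below 0.05 over all genes tested), with source or pup as a block. The block was used because phases, tissues, classes and labels were taken from the same library or animal. The scripts were tested on simulated data. There the label fit recovered 13 of 50 genes set to 0.5 times and 21 of 50 set to 2 times. The phase, tissue and class fits recovered 40 to 48 of 50 at these sizes. A member not called for the label may therefore still differ. DESeq2 1.42.0, other filters, the fit without the block and left-out sources were alternatives.

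Members and lists were chosen with earlier results of these data known. The text names, for each type, the 3 members with most UMIs and up to 2 per direction with the largest S against G1 change among those called. For the label it names every member called, and of the supply and variant lists up to 5 called genes with the largest change and up to 5 most abundant. Other members are named for their level or call and were chosen after their values were seen.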

Additional observations from a re-analysis of the deposited data

Results flagged for a closer look

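The sets searched were 36 sets of 4 sources (histone type by phase, in all cells and in HSC-like cells). In 2 of them a source stood far from the rest. Chance flags about 1 set in 20, so the 2 found are about as many as chance gives. H2B members in G1-called cells stood at 225 CPM in tube 1, against 134 to 146 in the other sources. H2A members in S-called cells stood at 2463 CPM in the pool, against 486 to 594 in the other sources. Hist1h2ap and Hist1h2ae carried much of the latter, at 1089 and 750.0 CPM in S-called cells of the pool. Hist1h2ap shares 92.4% of its 90-base stretches with other genes, and the pool was counted with another Cell Ranger release than E19 and the tubes, and the part of counting was not tested.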

How the results depend on the processing

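Poly(A) priming, near-identical members and 1 library per group limit these values, and no named member with a call changed direction under the alternatives run. Orders and medians without a call did turn. For example, P2 liver was above bone marrow in the reported values and below it over all barcodes, HSC-like spleen was above bone marrow and below it at resolution 2, and the member median for bone marrow against spleen in HSC-like cells was -0.16 over all phases and 0.07 in G1-called cells. Without the replicate block, the members called were 42 higher and 1 lower for S against G1, 53 higher for G2/M against G1 and 1 lower for S against G2/M (17 in HSC-like cells), 0 lower for the label, 11 higher and 0 lower in erythroid-like cells and 2 higher in B cell-like cells. With 6 libraries and the replicate block they were 57 higher and 3 lower, 60 higher, and 51 lower for the same 3 phase comparisons. The block comes from shared libraries and animals. Without a filter on low counts, 1 member was lower for G2/M against G1 and 7 for bone marrow against spleen in HSC-like cells, and 2 in erythroid-like cells, as with doublet scores removed or resolution 2. For the label, DESeq2 called 5 lower and the second hashtag rule 3. Leaving out 1 source gave 55 to 56 higher and 1 to 3 lower for S against G1, 57 to 60 higher for G2/M against G1, and 18 to 54 lower for S against G2/M. In HSC-like cells it gave 53 to 55 higher and 3 to 4 lower, 59 to 61 higher and 0 to 1 lower, and 57 to 60 lower. It gave 0 for bone marrow against spleen, 0 to 1 in each direction in HSC-like cells, 0 to 11 lower for the label (without the replicate block; 0 without either positive group, 9 without the negative cells of pup 1), 42 to 53 higher and 0 to 1 lower in erythroid-like cells and 1 to 41 higher in B cell-like cells. Over all barcodes the level was 7760.4, 7735, 7852 and 6528 CPM in P2 bone marrow, liver, spleen and tube 2, and with doublet scores removed 7851, 8032, 1950.3 and 6460.01 in P2 bone marrow, spleen, E19 and tube 2. As a mean over cells it was 6839, 7008, 1512, 5173 and 4943 in liver, spleen, E19, tube 1 and tube 2. HSC-like cells at resolution 2 stood at 4724, 4084, 3247, 1571, 6054 and 6215. The share of cells with a member UMI was 93.1%, 90.4%, 90.1%, 74.9%, 92.8% and 88.7% at 2500 UMIs and, unthinned, 95.9%, 94.9%, 91.1%, 99.4% and 98.3% from liver to tube 2. The cause of these shifts was not tested. For S against G1 only the members named by the rule above were followed singly, which were picked for most UMIs or largest change. They kept their call in 253 of 264 alternatives and lost it in 11, which does not cover the other called members. For the label, where every called member was followed, calls were kept in 59 and lost in 85, so the figures cover unlike sets. Member counts under the alternatives of this section are given without the share of all genes called. A drop in them cannot be told apart from a fit that called fewer genes of any kind. The planned class test in G1-called cells could not be fitted.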
